A study of Saccharomyces cerevisiae with 40 samples.

Results

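The 30 haploid segregants of a cross between 59A, a haploid strain derived from the wine yeast EC1118, and S288C, the laboratory strain of the yeast reference genome, were split by the nitrogen that each had taken from the must. The N_high group held the 19 segregants that assimilated more than 300 mg of nitrogen per l, and the N_low group held the 11 segregants that assimilated less. These 30 were the segregants among 40 samples, the other 10 being 5 cultures of 59A and 5 cultures of S288C. Every sample was grown in MS300, a synthetic must that imitates grape juice, at 28 °C, and RNA was taken at mid-fermentation, when growth has stopped. Each segregant was 1 spore clone and 1 culture, so the spread within a group holds differences of genotype together with those of culture and array, and no expression value of a segregant had a biological replicate. The segregants came from 21 asci, and 5 asci held spores of both groups. Expression was measured on 2-colour arrays as the log2 ratio of the sample to a pool of RNA of the same 30 segregants, so that a value of 0 is the level of the pool. The expression values played no part in forming the groups. A gene is said to be called where its difference had an adjusted p under 0.05 with limma, a linear model with moderated variances, after Benjamini-Hochberg adjustment over all 4388 genes.

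Nitrogen is the nutrient that limits growth in such a must, which offers ammonium and a mixture of amino acids. Yeast takes these up through ammonium and amino acid permeases, uses preferred sources first, and holds back the genes for poorer sources, such as proline and allantoin, by nitrogen catabolite repression, which is released when the preferred sources run out. Proline is used last, because the first enzyme of its breakdown needs oxygen, and starved cells also recycle their own protein through autophagy and the vacuole.

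N_high segregants fermented faster and left less acetic acid than N_low segregants. Assimilated nitrogen, which defined the groups, ran from 308 through a median of 335 to 343 mg per l in N_high and from 238 through 258 to 294 mg per l in N_low. Just above the limit lay segregants 20a, with 308.46 mg per l, and 18c, with 309.45 mg per l, and just below it lay 7a, with 293.52 mg per l, and 19c, with 287.37 mg per l. The nitrogen values come from 1 fermentation of each segregant.

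The maximum rate of CO2 release, Rmax, was 1.74, 2.34 and 2.96 g per l and h (lowest, median and highest) in N_high and 1.22, 1.64 and 2.10 in N_low. Of the N_high segregants, 15 lay above every N_low segregant. The means were 2.40 ± 0.394 (SD, n = 19) and 1.65 ± 0.239 (SD, n = 11) g per l and h, a difference of 0.745 ± 0.115 (SE, adjusted p = 9e-05, permutation test over 9 traits). The rates at mid and late fermentation, R50 and R70, were also higher in N_high, by 0.564 ± 0.130 (adjusted p = 0.00232) and 0.420 ± 0.124 (adjusted p = 0.01) g per l and h in the same permutation test. N_high segregants finished sooner, in 78.7 ± 12.97 h (SD, n = 19) against 106 ± 21.4 h (SD, n = 11) in N_low, and 11 of them were faster than every N_low segregant (adjusted p = 0.00015, permutation test).

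Acetic acid, a by-product of the supply of acetyl units and reducing power, was 0.278, 0.757 and 1.23 g per l in N_high and 0.948, 1.23 and 1.46 g per l in N_low. In 16 N_high segregants it was below every N_low value, and the mean difference was -0.449 ± 0.0792 g per l (SE, adjusted p = 9e-05, permutation test). The final cell population averaged 170 ± 61.0 Mcells (megacells) per ml in N_high (SD, n = 18) and 130 ± 38.8 in N_low (SD, n = 11), and the groups overlapped widely (difference 39.3 ± 18.5, adjusted p = 0.0967, permutation test). Glycerol (difference -0.425 ± 0.276 g per l, adjusted p = 0.114), succinic acid (-0.00450 ± 0.0207 g per l, adjusted p = 0.872) and pyruvic acid (-0.00463 ± 0.0271 g per l, adjusted p = 0.872) did not pass the permutation test.

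Among sister spores, the N_high spores had a higher Rmax, a shorter fermentation and less acetic acid in all 5 asci that hold both groups. Within those asci the difference was 0.866 g per l and h for Rmax, -32.2 h for the duration and -0.550 g per l for acetic acid. Each had an exact p of 0.00694 over the 144 splits of the 13 sister spores, which is the smallest p that this design allows (exact adjusted p = 0.0156). The difference in R70 was 0.446 g per l and h within asci, where its exact adjusted p was 0.113.

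**Figure D1:**
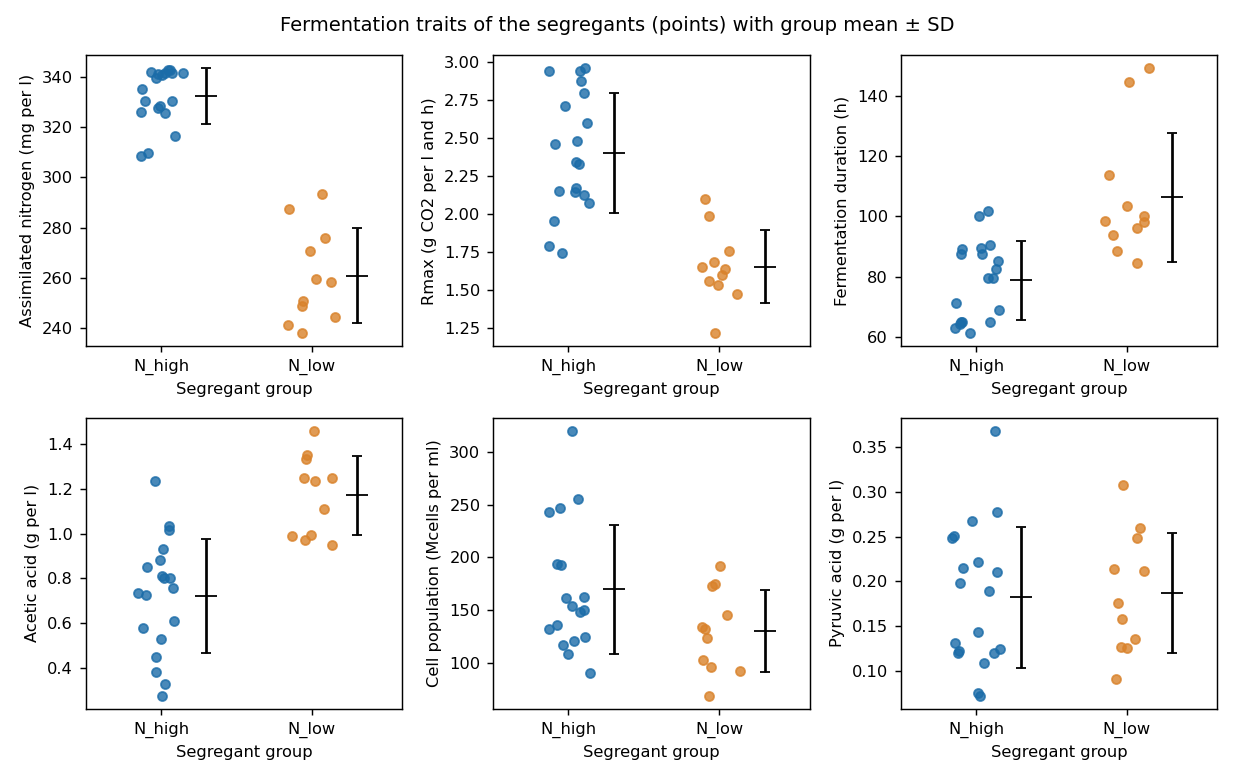
Fermentation traits of each segregant (points, N_high left of N_low, 1 value per segregant) with the group mean and SD (bars): assimilated nitrogen in mg per l, Rmax (g CO2, per l and h), fermentation duration in h, acetic acid and pyruvic acid in g per l, and cell population in Mcells per ml. Rmax is higher and duration and acetic acid are lower in N_high with partial overlap, whereas pyruvic acid covers the same range in both groups.

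None of the 4388 genes of the arrays was called between the groups, and most differences were small. By limma 0 genes were called higher in N_high (0%) and 0 lower (0%), with the lowest adjusted p at 0.141, and the methods' t-test called 0 as well. At an unadjusted p under 0.05 limma gave 669 genes (15.2%), of which 279 (6.36%) were higher and 390 (8.89%) were lower in N_high. The median difference of all genes was -0.01 and the differences ran from -1.13 to 0.94 on the log2 scale, with a median SE of 0.106. Of all 4388 genes 2040 were higher and 2348 lower in N_high by any amount, and 60 were higher and 24 lower by more than 0.5. No gene had N_high and N_low values without overlap (0%). In the following, genes and groups are described by their values, and "higher" and "lower" refer to measured differences that did not pass the adjusted test.

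The arrays of 3 segregants stood apart from the rest. Their correlation with the mean of the other segregant arrays was -0.07 in 20a (N_high), 0.01 in 19c (N_low) and 0.17 in 16d (N_low), whereas that of the other 27 arrays was between 0.35 and 0.73. Without these 3, a choice made after the data had been seen, limma called 168 genes (3.83%) between 18 N_high and 9 N_low segregants, of which 105 (2.39%) were higher and 63 (1.44%) were lower in N_high. All 168 had the same sign with the 3 arrays included, and 153 of them had an unadjusted p under 0.05 there, but 27 of the arrays enter both fits. When each array's correlation with the others was instead entered as a covariate, 0 genes were called in either direction. With nitrogen as a number rather than as a split, Spearman's rho called 151 genes (3.44%), of which 36 (0.82%) were higher and 115 (2.62%) lower with more nitrogen. Only 26 genes were called both by rho and by limma without the 3 arrays. Wherever a gene below is said to be called in one of these alternative fits, the result of the other is given too.

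A component common to the segregants was also present. Although the reference was a pool of these same strains, the mean over all segregants of a gene lay beyond 0.5 in size for 261 genes, 48 genes were above 0 in every segregant and 63 were below 0 in every segregant. Its part in the difference between the groups was not tested. Arrays of 2 segregants correlated on average at 0.322 within N_high, at 0.319 within N_low and at 0.276 between the groups. The lowest correlation of any 2 segregant arrays was -0.443.

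Among the permeases for ammonium and amino acids, *AGP1* and *MEP2* had the largest positive differences. *AGP1*, which encodes a permease of broad amino acid specificity, had log2 ratios of -0.77, 0.19 and 0.90 (lowest, median and highest) in N_high and -1.38, -0.48 and 0.54 in N_low. The 4 highest values were all of N_high segregants and the 3 lowest were all of N_low segregants, while the rest overlapped. The mean difference was 0.63 ± 0.18 (SE, unadjusted p = 0.00141, limma adjusted p = 0.141). *AGP1* was higher in the N_high spores of all 5 asci with both groups, by 0.25 to 1.44, and it was called without the 3 arrays that stand apart (0.74, adjusted p = 0.0292) but not with nitrogen as a number (rho = 0.38, adjusted p = 0.202). The N_low segregant 16d, left out there, held the highest N_low value, 0.54. The N_high segregant left out, 20a, was at 0.50.

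*MEP2*, which encodes the high-affinity ammonium permease, had values of -0.57, 0.65 and 1.29 in N_high and -0.76, -0.15 and 1.65 in N_low. The highest value of all belonged to the N_low segregant 9a, and the groups overlapped over the whole range. The difference was 0.58 ± 0.20 (SE, limma adjusted p = 0.172), and it was 0.58 without the 3 arrays (adjusted p = 0.0842). With nitrogen as a number *MEP2* was called (rho = 0.64, adjusted p = 0.0196). When Rmax was entered as a covariate its difference turned to -0.12, so that for *MEP2* the nitrogen group and the fermentation rate cannot be told apart.

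The other permease genes differed less. Of 15 measured permease genes 9 were higher and 6 lower in N_high, with a median of 0.03 against -0.01 over all genes, and 2 were higher and 1 was lower at an unadjusted p under 0.05 (20.0%, against 15.2% of all genes). *GAP1*, the general amino acid permease and a classical target of nitrogen catabolite repression, averaged -0.10 ± 0.41 in N_high and -0.21 ± 0.38 in N_low (SD, n = 19 and n = 11), a difference of 0.12 ± 0.14. The arginine permease gene *CAN1* differed by 0.10 ± 0.08 and the gene of the branched-chain amino acid permease *BAP3* by 0.27 ± 0.16. *HIP1*, the histidine permease gene, was the 1 member that was lower at an unadjusted p under 0.05 (-0.23 ± 0.11).

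**Figure D2:**
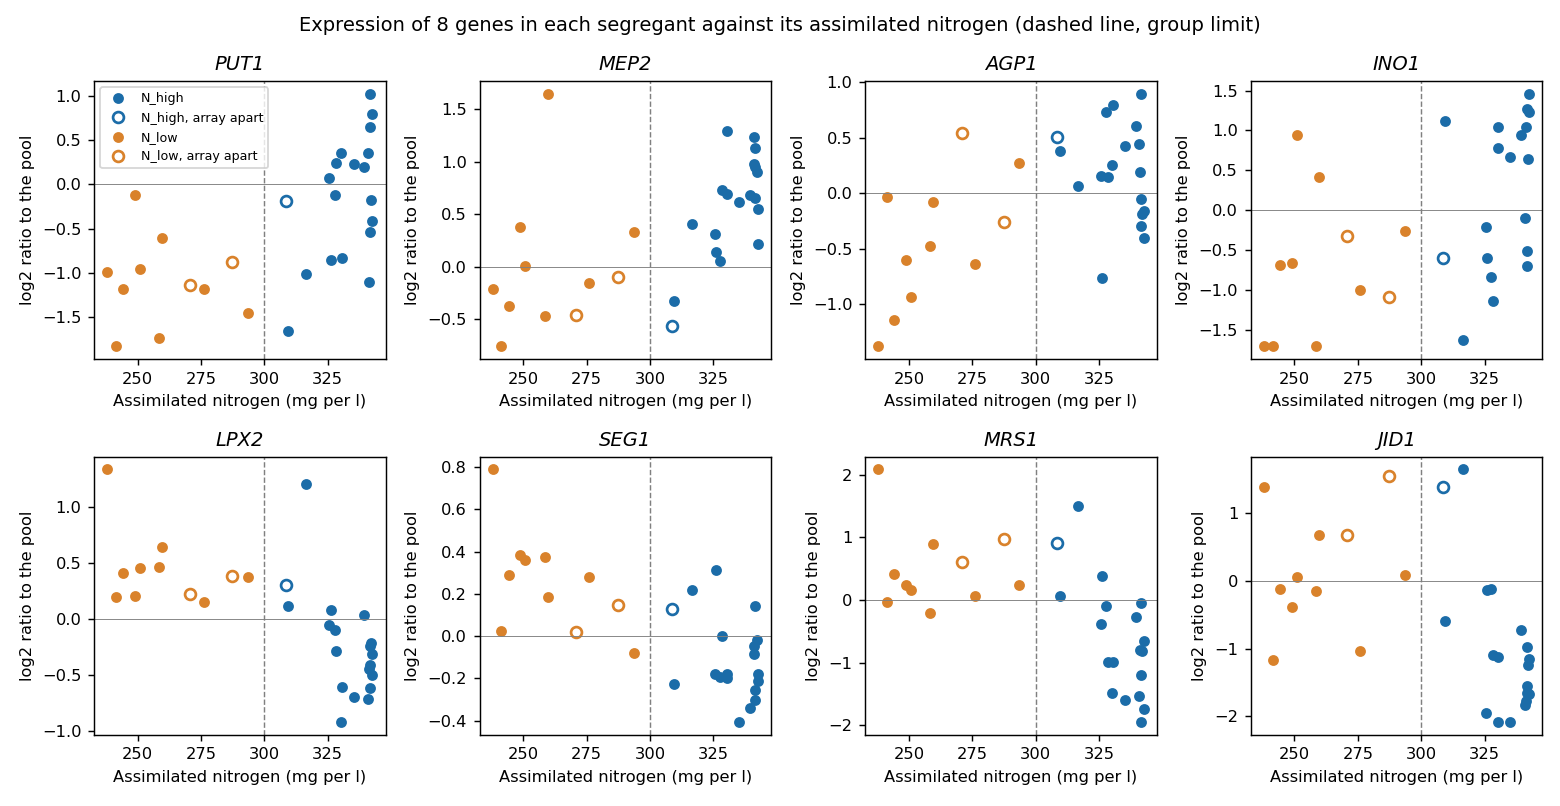
Log2 ratio to the pool (vertical axis) of 8 genes in each of the 30 segregants against assimilated nitrogen in mg per l (horizontal axis), with N_high and N_low in different colours, the 3 arrays that stand apart as open circles and the group limit as a dashed line. *PUT1*, *MEP2*, *AGP1* and *INO1* are higher and *LPX2*, *SEG1*, *MRS1* and *JID1* lower in N_high on average, with 17 of 19 N_high segregants below every N_low segregant for *LPX2*.

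The gene with the largest positive difference of all was *PUT1*, which encodes proline oxidase, the first enzyme of proline breakdown. Its log2 ratio was -1.65, -0.11 and 1.02 in N_high and -1.83, -1.13 and -0.12 in N_low. No N_low segregant reached the pool level, and 10 N_high segregants lay above every N_low segregant. The means were -0.16 ± 0.71 (SD, n = 19) in N_high and -1.10 ± 0.49 (SD, n = 11) in N_low, a difference of 0.94 ± 0.23 (SE, unadjusted p = 0.000237, limma adjusted p = 0.141). *PUT1* was higher in the N_high spores of all 5 asci, by 0.75 to 1.87. It was called without the 3 arrays (0.96, adjusted p = 0.0368) and with nitrogen as a number (rho = 0.66, adjusted p = 0.0161). *PUT2*, the gene of the next enzyme of the pathway, averaged -0.22 ± 0.33 in N_high and -0.39 ± 0.22 in N_low, a difference of 0.16 ± 0.11 (limma adjusted p = 0.469).

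For proline, arginine and GABA use as a whole, 9 of 12 measured genes were higher and 3 lower in N_high, with a median of 0.12. At an unadjusted p under 0.05, *PUT1* and *CAR2*, the ornithine aminotransferase gene of arginine breakdown (0.15 ± 0.08), were higher, and *ARG82* was lower (25.0% of the list, against 15.2% of all genes). *ARG82* encodes an inositol polyphosphate kinase that was first known as a regulator of arginine genes. It averaged -0.04 ± 0.29 in N_high and 0.22 ± 0.21 in N_low, a difference of -0.27 ± 0.10 (limma adjusted p = 0.191), with lower values in the N_high spores of all 5 asci. Of 6 genes of allantoin and urea use 1 was higher and 1 lower at an unadjusted p under 0.05 (33.3%, against 15.2% of all genes). The higher was *DAL5*, the allantoate permease gene (0.33 ± 0.16, limma adjusted p = 0.319), whose N_high spores were above their N_low sisters in all 5 asci.

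The genes of the regulators of nitrogen use were balanced, with 8 of 18 higher, 10 lower and a median of -0.01. *SSY5*, which encodes the protease of the sensor for external amino acids, averaged -0.37 ± 0.48 in N_high and -0.85 ± 0.58 in N_low (difference 0.47 ± 0.19, limma adjusted p = 0.205). *RTG3*, a transcription factor gene of the retrograde pathway, which ties glutamate synthesis to mitochondrial state, differed by 0.38 ± 0.14 (limma adjusted p = 0.178). Both were called without the 3 arrays, with differences of 0.66 and 0.50 (adjusted p = 0.0305 and 0.0246), and neither with nitrogen as a number (rho = 0.28 and 0.26, adjusted p = 0.389 and 0.426). The N_low segregants left out there held the highest N_low values of both genes, 16d with 0.19 and 0.36 and 19c with 0.06 and 0.13. The N_high segregant left out, 20a, was at 0.21 and 0.66. Both genes were higher in the N_high spores of all 5 asci. *TCO89*, the gene of a subunit of the TORC1 kinase complex, which senses nitrogen, was lower in N_high by 0.27 ± 0.10 and was called with nitrogen as a number (rho = -0.57, adjusted p = 0.0404) but not without the 3 arrays (-0.29, adjusted p = 0.0901).

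In glutamate and glutamine metabolism, the hub through which ammonium is assimilated, 0 of 12 genes reached an unadjusted p under 0.05, and the differences ran from -0.16 to 0.19. None of the 5 asparaginase genes did, and their mean level ran from -1.39 to 1.25 within N_high alone and from -0.99 to 0.22 in N_low. The 52 genes of amino acid synthesis had a median of -0.03, with 3 higher and 4 lower at an unadjusted p under 0.05 (13.5%, against 15.2%).

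Autophagy genes, which recycle cell material under starvation, differed in both directions, with 12 of 24 higher and 12 lower and a median of 0.00. At an unadjusted p under 0.05 there were 3 higher and 6 lower members (37.5%, against 15.2% of all genes). *ATG12*, which encodes a ubiquitin-like protein needed to form autophagosomes, averaged -0.18 ± 0.28 in N_high and -0.69 ± 0.44 in N_low, and 7 N_low segregants lay below every N_high segregant (difference 0.51 ± 0.13, unadjusted p = 0.000305, limma adjusted p = 0.141). *ATG42*, a vacuolar carboxypeptidase gene, differed by 0.39 ± 0.11. Both were called without the 3 arrays (adjusted p = 0.0176 and 0.0218) and neither with nitrogen as a number (rho = 0.40 and 0.38, adjusted p = 0.180 and 0.205). The N_low segregant 16d, left out there, held the highest N_low values of both genes, 0.19 and 0.28. The N_high segregant left out, 20a, was at 0.18 and 0.16. *ATG4*, whose product is the protease that processes Atg8, was lower in N_high, by 0.30 ± 0.10, and was called with nitrogen as a number (rho = -0.59, adjusted p = 0.0358) but not without the 3 arrays (-0.34, adjusted p = 0.0534).

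Of 8 vacuolar protease genes 3 were higher and 5 lower in N_high, with a median of -0.13. *PRC1*, the gene of carboxypeptidase Y, was lower in the N_high spores of all 5 asci and averaged -0.24 ± 0.20 in N_high and -0.02 ± 0.24 in N_low (difference -0.22 ± 0.08, rho = -0.55, rho adjusted p = 0.0459, adjusted p = 0.119 without the 3 arrays). *PRB1*, the gene of proteinase B, averaged 0.07 ± 0.20 in N_high and -0.08 ± 0.16 in N_low (difference 0.15 ± 0.08, rho = 0.55, rho adjusted p = 0.0459, adjusted p = 0.280 without the 3 arrays). Genes of the proteasome had a median of 0.00, with 2 higher and 3 lower of 33 at an unadjusted p under 0.05 (15.2%, against 15.2% of all genes).

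Among the genes with the largest differences outside nitrogen use, *INO1*, which encodes the inositol phosphate synthase of inositol synthesis, had values of -1.63, 0.64 and 1.46 in N_high and -1.71, -0.68 and 0.94 in N_low. The 7 highest segregants were N_high, but low values were found in both groups. The difference was 0.91 ± 0.33 (limma adjusted p = 0.184), and it was called with nitrogen as a number (rho = 0.59, adjusted p = 0.0342) but not without the 3 arrays (adjusted p = 0.110). *CBR1*, which encodes cytochrome b5 reductase, an electron donor of sterol and fatty acid synthesis, differed less but with little overlap. It averaged 0.42 ± 0.19 in N_high and 0.16 ± 0.11 in N_low, and 15 N_high segregants lay above every N_low segregant (difference 0.26 ± 0.07, unadjusted p = 0.000776, limma adjusted p = 0.141, 0.28 and adjusted p = 0.0368 without the 3 arrays, rho = 0.60, rho adjusted p = 0.0303).

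Several further genes were higher in N_high by 0.7 or more with their lowest values in N_low. *TOS2*, a gene of bud-site polarity, averaged -0.14 ± 0.60 in N_high and -0.95 ± 0.71 in N_low (difference 0.80 ± 0.23). *CSH1*, which encodes a subunit of a sphingolipid mannosyltransferase, differed by 0.74 ± 0.19, with 8 N_low segregants below every N_high segregant. *PTH2*, a peptidyl-tRNA hydrolase gene, differed by 0.74 ± 0.20, with 7 N_low segregants below every N_high segregant although its highest value was also of N_low. All 3 had a limma adjusted p of 0.141 and were higher in the N_high spores of all 5 asci, and all 3 were called without the 3 arrays (adjusted p of 0.0176, 0.0195 and 0.0176). The N_low segregants left out there held the highest N_low values, 16d and 19c for *TOS2* (0.37 and 0.10) and 16d for *CSH1* (0.82) and *PTH2* (1.39). The N_high segregant left out, 20a, was at 0.84, 0.23 and 0.93. With nitrogen as a number none of these 3 genes was called (rho = 0.38, 0.45 and 0.42, adjusted p = 0.206, 0.113 and 0.160).

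*CBP1*, which encodes a protein that stabilises the mitochondrial mRNA of cytochrome b, averaged -0.76 ± 0.95 in N_high and -1.61 ± 0.92 in N_low (difference 0.85 ± 0.33, limma adjusted p = 0.207). *SMB1*, the gene of a core protein of the spliceosome, averaged -0.25 ± 0.95 in N_high and -1.06 ± 0.99 in N_low (difference 0.81 ± 0.34, limma adjusted p = 0.239). Both genes spanned more than 2 log2 units within each group, and both were called without the 3 arrays (adjusted p = 0.0292 and 0.0338) but not with nitrogen as a number (rho = 0.32 and 0.24, adjusted p = 0.311 and 0.477). The N_low segregants left out there, 16d and 19c, held the highest N_low values of both genes. These were 0.10 and 0.21 for *CBP1*, and 1.23 and 0.36 for *SMB1*. The N_high segregant left out, 20a, was at 0.61 and 0.65. The lowest N_low values of *CBP1* lay at -2.32, the lower bound of the scale. *RNR2*, the gene of the small subunit of ribonucleotide reductase, had less spread, with 0.16 ± 0.27 in N_high and -0.21 ± 0.18 in N_low, and 12 N_high segregants above every N_low segregant (difference 0.37 ± 0.09, limma adjusted p = 0.141, adjusted p = 0.0273 without the 3 arrays, rho = 0.55, rho adjusted p = 0.0478).

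The separation of the groups was clearest in a gene that was lower in N_high, *LPX2*. Its log2 ratios were -0.92, -0.28 and 1.21 in N_high and 0.15, 0.38 and 1.33 in N_low. All N_low segregants were above the pool, and 17 of 19 N_high segregants lay below every N_low segregant. The exceptions were 28b, at 1.21, and 20a, at 0.30, which is one of the arrays that stand apart. The means were -0.23 ± 0.47 in N_high and 0.44 ± 0.33 in N_low, a difference of -0.67 ± 0.16 (SE, unadjusted p = 0.00015, limma adjusted p = 0.141). *LPX2* was lower in the N_high spores of all 5 asci and was called without the 3 arrays (-0.73, adjusted p = 0.0218) and with nitrogen as a number (rho = -0.81, adjusted p = 0.000273). When 28b was left out and the other 29 segregants were kept, *LPX2* and *COX16* were called and no other gene was.

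*SEG1*, which encodes a component of the eisosomes of the plasma membrane, had the lowest unadjusted p of the genes named here (0.00014). It averaged -0.11 ± 0.20 in N_high and 0.25 ± 0.24 in N_low, and 12 N_high segregants lay below every N_low segregant. Its difference of -0.36 ± 0.08 had a limma adjusted p of 0.141, became -0.41 without the 3 arrays (adjusted p = 0.0202, with rho = -0.71 and rho adjusted p = 0.00846), and was negative in all 5 asci, from -0.65 to -0.23.

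Nuclear genes of mitochondrial gene expression were among those with the largest negative differences. *MRS1*, whose product is needed to splice the mitochondrial RNA of cytochrome b, had values of -1.95, -0.80 and 1.51 in N_high and -0.21, 0.23 and 2.09 in N_low. Of the N_high segregants 13 lay below every N_low segregant, while 28b, at 1.51, was among the highest of all. The difference was -1.11 ± 0.30 (unadjusted p = 0.000735, limma adjusted p = 0.141), and *MRS1* was called without the 3 arrays (-1.13, adjusted p = 0.0391) and with nitrogen as a number (rho = -0.75, adjusted p = 0.00403).

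*MTF1*, which encodes the specificity factor of the mitochondrial RNA polymerase, averaged -0.85 ± 1.07 in N_high and 0.26 ± 1.03 in N_low (difference -1.11 ± 0.37, limma adjusted p = 0.158). *JID1*, the gene of a mitochondrial Hsp40 cochaperone, averaged -0.99 ± 1.06 in N_high and 0.14 ± 0.87 in N_low, and its difference of -1.13 ± 0.35 was the largest negative one of all genes (limma adjusted p = 0.142). Segregant 28b had 1.80 and 1.65 for these genes, close to the highest N_low values of 1.80 and 1.56. Both genes were called with nitrogen as a number (rho = -0.65 and -0.63, adjusted p = 0.0161 and 0.0234) and neither without the 3 arrays (adjusted p = 0.0890 and 0.0597).

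*COX16*, whose product helps to assemble cytochrome c oxidase, averaged -0.79 ± 0.56 in N_high and -0.15 ± 0.22 in N_low. In 16 N_high segregants it was below every N_low segregant, and the highest value of all was that of an N_high segregant, 0.85. The difference was -0.64 ± 0.17 (limma adjusted p = 0.141) and was called both without the 3 arrays (-0.67, adjusted p = 0.0379) and with nitrogen as a number (rho = -0.69, adjusted p = 0.0112). The groups of genes to which these belong did not share such a shift. Of 18 genes of respiratory chain assembly 10 were higher and 8 lower (median 0.01), and of 19 genes of mitochondrial RNA and splicing 9 were higher and 10 lower (median -0.02). Of these 19, 1 was higher and 4 were lower at an unadjusted p under 0.05 (26.3%, against 15.2% of all genes).

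Nuclear genes of the respiratory chain were lower in 28 of 39 cases, against 2348 of all 4388 genes, with a median of -0.06. At an unadjusted p under 0.05, 0 were higher and 5 lower (12.8%, against 15.2% of all genes, or 8.89% in this direction). *QCR6*, a subunit gene of the cytochrome bc1 complex, averaged -0.01 ± 0.23 in N_high and 0.29 ± 0.21 in N_low (difference -0.30 ± 0.09, limma adjusted p = 0.141, adjusted p = 0.0176 without the 3 arrays, rho = -0.58, rho adjusted p = 0.0369). Of the 16 measured features of the mitochondrial genome 13 were lower in N_high, with a median of -0.16, and their mean level ran from -0.88 to 0.77 in N_high and from -0.82 to 0.62 in N_low.

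The list with the most negative median held several of the genes just described. The 42 genes that the study had linked to a region of chromosome XIV in these same segregants had a median difference of -0.32, against -0.01 over all genes. At an unadjusted p under 0.05, 26 of them were lower and 7 higher (78.6%, against 15.2% of all genes). The list includes *JID1*, *MRS1*, *MTF1*, *RRP40*, *RPL3*, *LPX2*, *SEG1* and *NSA1*. The study chose this list on these samples. It also mapped assimilated nitrogen, which defines the groups here, to the same region. The list is therefore no independent evidence of a difference or of its direction. *RRP40*, a subunit gene of the RNA exosome, differed by -0.90 ± 0.27 and *NSA1*, a gene of large-subunit assembly, by -0.53 ± 0.14 (both limma adjusted p = 0.141).

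The PAU genes, which encode small seripauperin mannoproteins of the cell wall and are induced without oxygen, were the list with the most positive median. All 21 measured members were higher in N_high, with a median of 0.40, and 7 were higher at an unadjusted p under 0.05 (33.3%, against 6.36% of all genes in this direction). The mean level of the family was -1.08, -0.04 and 1.09 in N_high (lowest, median and highest segregant) and -0.60, -0.34 and -0.09 in N_low. No N_low segregant reached the level of the pool, whereas N_high held both the highest and the lowest segregants. With nitrogen as a number 10 of the 21 were called (against 0.82% of all genes in this direction), and without the 3 arrays 0 were. Since the PAU genes are nearly identical, their oligonucleotides cannot fully tell the copies apart, and the 21 values are not independent.

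*PAU7* had values of -1.38, -0.14 and 1.31 in N_high and -0.92, -0.52 and 0.02 in N_low, and *PAU23* of -1.22, -0.13 and 0.42 in N_high and -1.21, -0.51 and -0.21 in N_low. Of the N_high segregants 9 and 13 lay above every N_low segregant. The differences were 0.53 ± 0.20 and 0.40 ± 0.13 (limma adjusted p = 0.191 and 0.154). In *PAU7* the relation to nitrogen was found within N_high as well (rho = 0.71 over 19 segregants), and not within N_low (rho = 0.08 over 11).

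Genes of Ty retrotransposons, mobile elements present in many copies, were higher in 73 of 85 cases, with a median of 0.32. Only 7 were higher and 2 lower at an unadjusted p under 0.05 (10.6%, against 15.2%). Their mean level ran from -1.22 to 1.01 in N_high and from -1.17 to 0.92 in N_low, so that both groups covered nearly the same range. *YLR410W-B*, an example, averaged 0.38 ± 0.74 in N_high and -0.29 ± 0.82 in N_low (difference 0.66 ± 0.28, limma adjusted p = 0.228). The median of the list was 0.14 without the 3 arrays and turned to -0.51 with Rmax as a covariate.

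**Figure D3:**
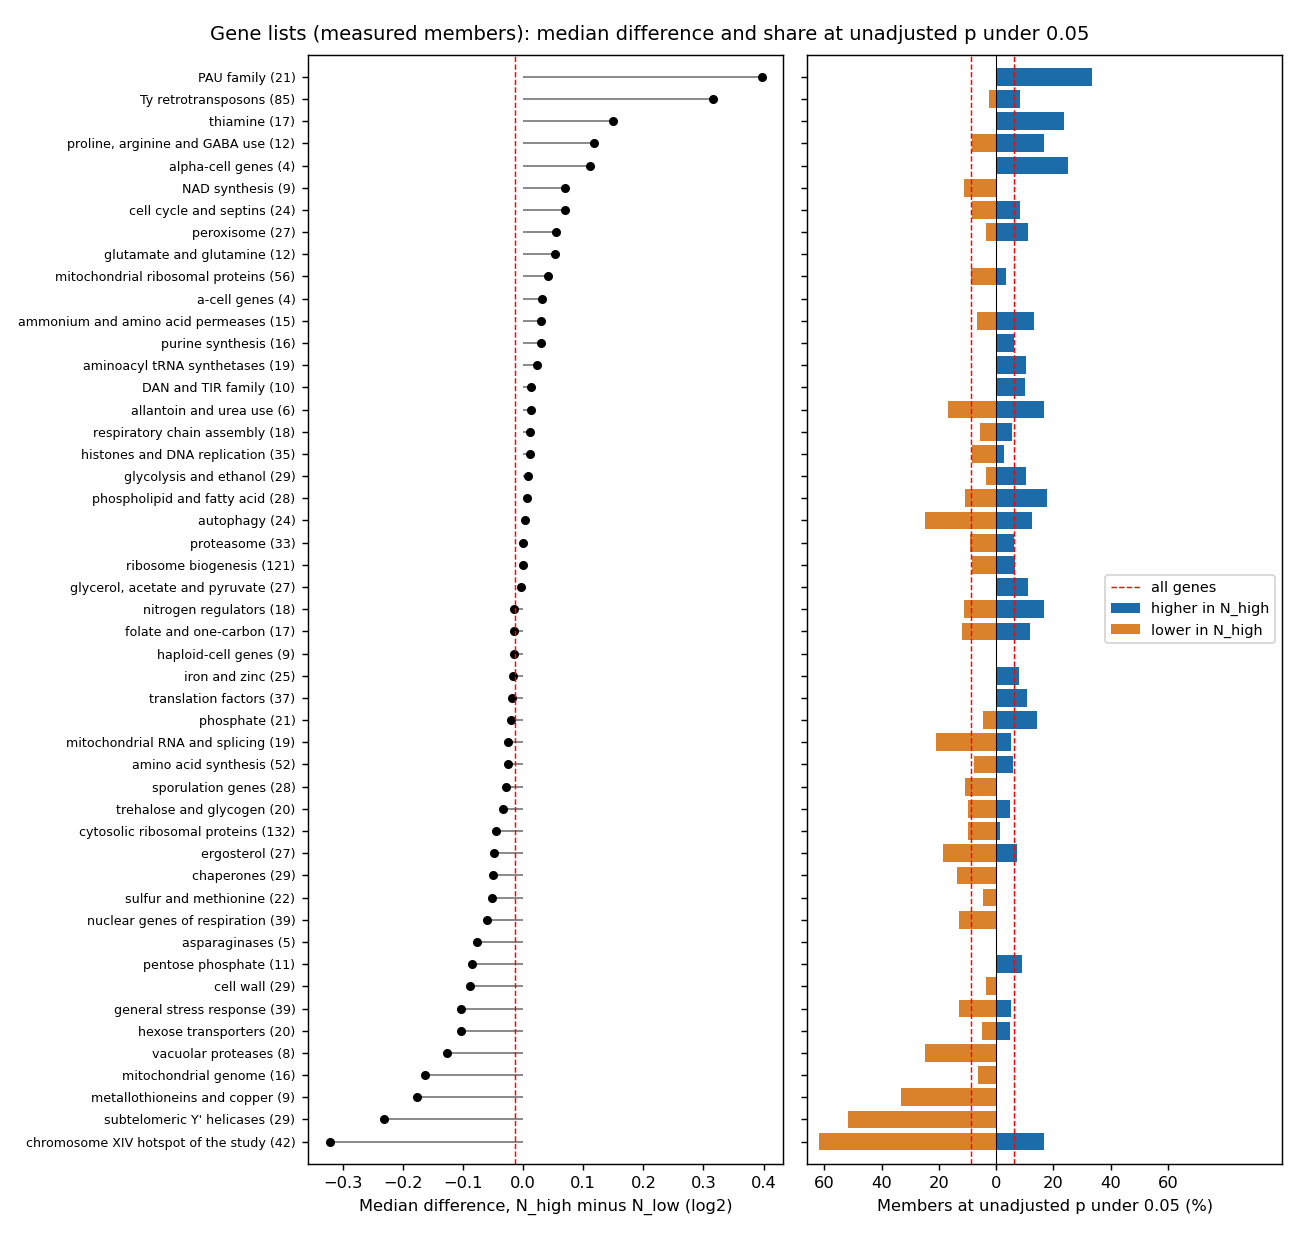
Gene lists, with the number of measured members in parentheses, ordered by the median difference of their members (left panel, N_high minus N_low, log2) and shown with the share of members at an unadjusted p under 0.05 that were higher or lower in N_high (right panel, %). Dashed lines mark all 4388 genes (median -0.01, 6.36% higher and 8.89% lower), and PAU genes lie highest and Y' helicases and the chromosome XIV genes lowest.

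The helicase genes of the subtelomeric Y' elements were lower in N_high. Of 29 measured members 26 were lower, with a median of -0.23, and 15 were lower at an unadjusted p under 0.05 (51.7%, against 8.89% of all genes in this direction) and 0 higher. With nitrogen as a number 11 were called lower (against 2.62% of all genes) and without the 3 arrays 6 were (against 1.44%). The mean level of the list was -0.56, -0.25 and -0.10 in N_high and -0.25, -0.08 and 0.15 in N_low. *YRF1-7* averaged -0.47 ± 0.32 in N_high and -0.07 ± 0.25 in N_low (difference -0.40 ± 0.11, limma adjusted p = 0.141) and was lower in the N_high spores of all 5 asci. These genes are near-identical copies at different chromosome ends, whose signals the array cannot separate, and 2 of them are also on the chromosome XIV list.

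Of 9 genes of metallothioneins and copper handling 7 were lower, with a median of -0.18. *CUP1-2*, 1 of the copies of the gene for the metallothionein that binds copper, had values of -1.36, -0.29 and 1.42 in N_high and -0.05, 0.41 and 0.97 in N_low, with 11 N_high segregants below every N_low segregant. Its difference was -0.70 ± 0.20 (limma adjusted p = 0.141), and it was negative in all 5 asci. *CUP1-1*, a copy of the same sequence, differed by -0.65.

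Ribosomal protein genes differed little as a group, with 84 of 132 lower and a median of -0.04. At an unadjusted p under 0.05 there were 2 higher and 13 lower (11.4%, against 15.2%). *RPL3* was the most negative, with -0.59 ± 0.70 in N_high and 0.11 ± 0.50 in N_low (difference -0.70 ± 0.23, limma adjusted p = 0.145), and it was called without the 3 arrays (-0.83, adjusted p = 0.0393) and with nitrogen as a number (rho = -0.56, adjusted p = 0.0424). *RPL28* differed by -0.34 ± 0.11. The 121 genes of ribosome biogenesis had a median of 0.00, with 8 higher and 10 lower at an unadjusted p under 0.05 (14.9%, against 15.2%). Of 37 translation factor genes 14 were higher and 23 lower, with a median of -0.02. At an unadjusted p under 0.05, 4 were higher and 0 lower (10.8%, against 15.2% of all genes, or 6.36% in this direction).

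In both directions together, stress genes were near the background at an unadjusted p under 0.05. Of 39 genes of the general stress response 27 were lower, with a median of -0.10. At that threshold 2 were higher and 5 lower (17.9%, against 15.2%), and the lower ones made 12.8%, against 8.89% of all genes. Of 29 chaperone genes 19 were lower, with 0 higher and 4 lower at that threshold (13.8%, against 15.2%, or 8.89% in this direction). *HSP12*, a membrane stress gene, had one of the largest negative differences, but its values ran from -2.32 to 1.80 in N_high and from -0.97 to 1.42 in N_low (difference -0.79 ± 0.42, unadjusted p = 0.0720, limma adjusted p = 0.367). Its sign turned to 0.29 with Rmax and to 0.36 with R70 as a covariate. In trehalose and glycogen metabolism *GLC3*, the glycogen branching enzyme gene, was higher (0.18 ± 0.28 in N_high and -0.14 ± 0.20 in N_low, difference 0.32 ± 0.10, limma adjusted p = 0.141, adjusted p = 0.0440 without the 3 arrays, rho = 0.55, rho adjusted p = 0.0459), while the 20 genes of the list had a median of -0.03.

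Of 20 hexose transporter genes 19 were lower in N_high, but by small amounts, with a median of -0.10. At an unadjusted p under 0.05, 1 was higher and 1 lower (10.0%, against 15.2% of all genes). *HXT1*, the gene of a low-affinity glucose transporter, averaged 0.13 ± 0.26 in N_high and 0.36 ± 0.36 in N_low (difference -0.23 ± 0.11). Genes of glycolysis and ethanol formation had a median of 0.01. Thiamine genes were higher in 15 of 17 cases, with a median of 0.15. At an unadjusted p under 0.05, 4 were higher and 0 lower (23.5%, against 6.36% of all genes in this direction), among them the nearly identical *THI5* and *THI11*. Of the thiamine genes 0 were called without the 3 arrays or with nitrogen as a number.

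In folate and one-carbon metabolism, 8 of 17 genes were higher and 9 lower, with a median of -0.02. *ABZ1*, which encodes the enzyme that makes aminodeoxychorismate on the way to para-aminobenzoate and folate, had values of -0.51, -0.11 and 0.44 in N_high and -0.05, 0.11 and 0.56 in N_low. Of the N_high segregants 10 lay below every N_low segregant. The difference was -0.23 ± 0.08 (unadjusted p = 0.00759, limma adjusted p = 0.173), it was negative in 4 of 5 asci, and it was not called without the 3 arrays (adjusted p = 0.0826) or with nitrogen as a number (rho = -0.39, adjusted p = 0.190). *MIS1*, the gene of mitochondrial C1-tetrahydrofolate synthase, was called without the 3 arrays (0.26, adjusted p = 0.0368) but not with nitrogen as a number (rho = 0.21, adjusted p = 0.558), with 0.18 ± 0.09 over all segregants. The N_low segregants left out there, 16d and 19c, held its highest N_low values, 0.19 and 0.10. The N_high segregant left out, 20a, was at 0.37.

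Among single genes of lipid and membrane processes, *ERG24*, the sterol C-14 reductase gene of ergosterol synthesis, averaged -0.58 ± 0.35 in N_high and -0.21 ± 0.16 in N_low, and 13 N_high segregants lay below every N_low segregant (difference -0.37 ± 0.11, limma adjusted p = 0.141, rho = -0.65, rho adjusted p = 0.0161, adjusted p = 0.0510 without the 3 arrays). *PEX29*, a gene of peroxisome biology, was higher in all 5 asci (0.53 ± 0.16, adjusted p = 0.0292 without the 3 arrays, rho = 0.60, rho adjusted p = 0.0305), as was *PHO87*, a low-affinity phosphate transporter gene (0.49 ± 0.15, adjusted p = 0.0419 without the 3 arrays, rho = 0.40, rho adjusted p = 0.180). The 27 genes of ergosterol synthesis had a median of -0.05, with 2 higher and 5 lower at an unadjusted p under 0.05 (25.9%, against 15.2% of all genes).

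Markers of cell state were examined for the other states that a culture could hold. Of 4 genes particular to a cells and 9 particular to haploid cells 0 reached an unadjusted p under 0.05 (against 15.2% of all genes). Of 28 sporulation genes 13 were higher and 15 lower. At an unadjusted p under 0.05, 0 were higher and 3 lower (10.7%, against 15.2% of all genes, or 8.89% in this direction). Of 4 genes particular to alpha cells 3 were higher and 1 lower, with a median of 0.11. At an unadjusted p under 0.05, 1 was higher and 0 lower (25.0%, against 15.2% of all genes, or 6.36% in this direction). That gene was *STE3*, which encodes the receptor for a-factor (1.46 ± 0.46 in N_high and 0.97 ± 0.51 in N_low, difference 0.49 ± 0.17, limma adjusted p = 0.172). *STE3* stood at 2.09, the highest value that the normalized scale reaches on any array, in 5 segregants, so its upper values are bounded.

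Within the 5 asci that hold N_high and N_low sisters, 407 genes had the same sign in all 5 (9.28%), 201 higher (4.58%) and 206 lower (4.69%) in N_high. *PUT1*, *AGP1*, *CSH1*, *LPX2*, *SEG1* and *YRF1-7* were among them. *INO1*, *MEP2*, *MRS1* and *JID1* had the common sign in 4 asci and the opposite sign in ascus 20, where the differences were -1.54, -0.57, 0.75 and 1.33. The N_high spore of that ascus, 20a, is one of the 3 arrays that stand apart and lies just above the limit of nitrogen.

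**Figure D4:**
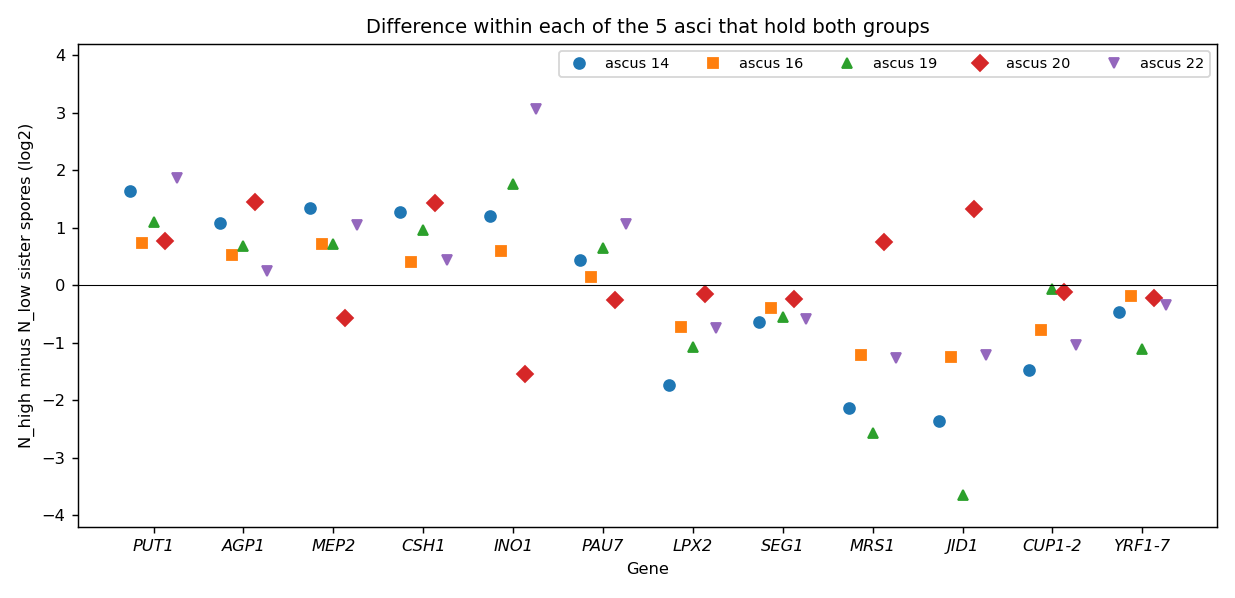
Difference between N_high and N_low sister spores (log2, vertical axis) for 12 genes (horizontal axis) within each of the 5 asci that hold both groups (symbols). The sign is shared by all 5 asci for *PUT1*, *AGP1*, *CSH1*, *LPX2*, *SEG1*, *CUP1-2* and *YRF1-7*, and ascus 20 departs from the others for *MEP2*, *INO1*, *PAU7*, *MRS1* and *JID1*.

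The relation to nitrogen was also examined for 12 genes one by one, as Pearson's r and Spearman's rho over the 30 segregants with permutation tests. The 12 were picked from the genes named above, which had been chosen on these same segregants. Their permutation p-values are not adjusted and are no independent evidence. *LPX2* had r = -0.71 and rho = -0.81 (permutation p = 2e-05 and 1e-05, the second being the smallest that 100000 permutations give). *PUT1* had r = 0.63 and rho = 0.66 (permutation p = 0.0003 and 0.00014), and *MEP2* had r = 0.57 and rho = 0.64 (permutation p = 0.00108 and 0.00014). Without the 2 segregants farthest from the median nitrogen, r was -0.68, 0.58 and 0.48. *AGP1* had r = 0.58 and rho = 0.38 (permutation p = 0.0009 and 0.0393), with r = 0.53 without these 2.

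Within the groups, where the split itself plays no part, the relations differed. Over the 19 N_high segregants rho was -0.62 for *MRS1*, -0.57 for *LPX2*, 0.49 for *MEP2*, 0.39 for *PUT1*, -0.27 for *AGP1* and 0.01 for *CBR1*. Over the 11 N_low segregants rho was -0.01 for *MRS1*, -0.25 for *LPX2*, 0.35 for *MEP2*, 0.06 for *PUT1*, 0.55 for *AGP1* and 0.55 for *CBR1*. The difference of these values between the groups was not tested.

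The 5 cultures of 59A and the 5 of S288C were other samples, hybridised against the same pool, and gave the parental difference for the same genes. Between them 1352 genes (30.8%) passed an adjusted p under 0.01 by limma, 749 higher (17.1%) and 603 lower (13.7%) in 59A. Of the 168 genes called between the nitrogen groups without the 3 arrays, 66 (39.3%) were among the parental calls, and all 66 had the same direction, being higher in 59A where they were higher in N_high. Of the 151 genes called with nitrogen as a number, 49 (32.5%) were parental calls, 46 in the same direction and 3 in the opposite. Of the 669 genes at an unadjusted p under 0.05 by limma, 200 (29.9%) were, 177 in the same direction and 23 in the opposite. Over all genes, 59.2% had the same sign in both comparisons.

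*PUT1* averaged -0.22 ± 0.19 in 59A and -0.82 ± 0.21 in S288C (SD, n = 5 each), a difference of 0.60 (limma adjusted p = 0.00063). *AGP1* averaged -0.91 ± 0.09 in 59A and -1.39 ± 0.15 in S288C, both below most segregants (difference 0.48, limma adjusted p = 0.00016). *MEP2* was higher in 59A by 0.82 and *INO1* by 1.82 (limma adjusted p = 3.2e-05 and 3.5e-09). For *INO1* the N_high median of 0.64 and the 59A mean of 1.03 were both above the pool, and the N_low median of -0.68 and the S288C mean of -0.79 both below it.

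For other genes the parental difference was small or of the opposite sign. *CSH1* (59A minus S288C -0.01, limma adjusted p = 0.94) and *JID1* (-0.08, limma adjusted p = 0.25) were not called between the parents. The Ty genes had a median of -1.13 between 59A and S288C, with 4 higher and 71 lower in 59A, against a median of 0.32 between N_high and N_low. *YLR410W-B* was at -0.83 ± 0.13 in 59A and 0.05 ± 0.18 in S288C. The PAU genes had the same sign in both comparisons, with all 21 called higher in 59A and a median of 1.72.

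**Figure D5:**
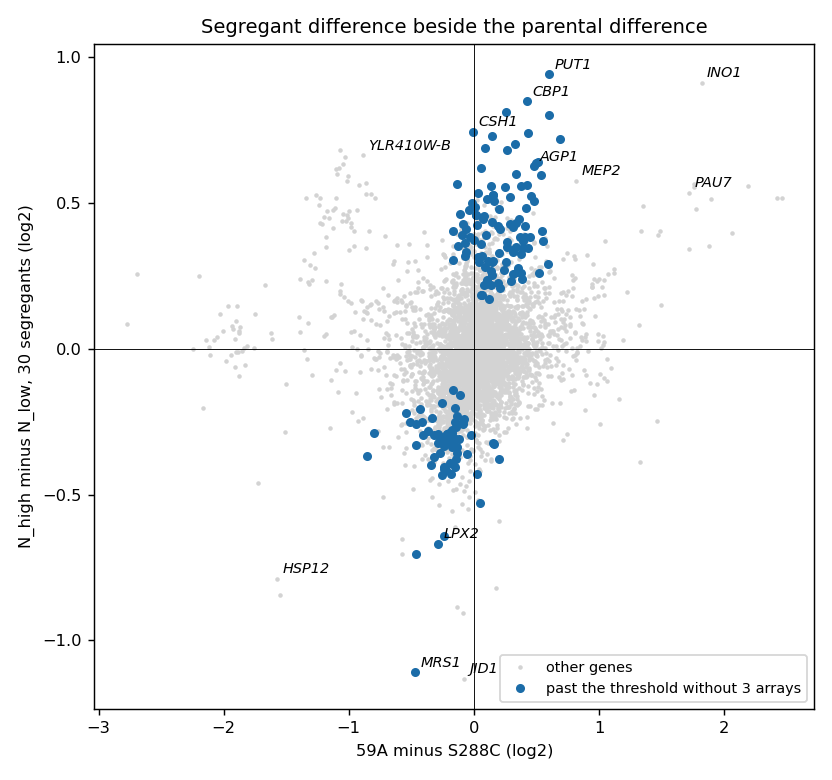
Difference between N_high and N_low segregants (vertical axis, log2, all 30 segregants) against the difference between 59A and S288C (horizontal axis, log2) for each gene, with the 168 genes called without the 3 arrays that stand apart in colour. *PUT1*, *AGP1*, *INO1* and *MEP2* are positive in both, *MRS1* and *LPX2* negative in both, and *YLR410W-B* lies with other Ty genes at positive segregant and negative parental differences.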

How the data were processed

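The authors deposited 1 table of log2 ratios, sample (Cy3) over a pool of the 30 segregants (Cy5), after print-tip loess and quantile normalization with R 2.9.2 and limma (per the submitters' processing notes) and averaging of 2 hybridisations. Every array spans -2.32 to 2.09, so extreme values are bounded. The dyes are stated in the methods. The table holds 4388 oligonucleotides on 40 arrays with 53 missing values, and 4104 names were updated through the RefSeq gene table. No gene had more than 1 oligonucleotide. The authors' trait table, also deposited, holds 1 value per strain in other units (g per l, h, cells per ml), which the methods give as means over duplicate fermentations for most traits of a segregant. Nitrogen is read as mg per l, although a figure axis of the study gives mg per ml. Labels and methods differ in culture volume, labelling kit and the mating type of S288C, and none of these enters a test.

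The test between groups was that of limma (version 3.58.1, under R 4.3.3, lmFit then eBayes, two-sided, Benjamini-Hochberg over all genes, adjusted p under 0.05, parents 0.01). Traits were compared by permutation (100000, two-sided, adjusted over 9 traits) in numpy 2.4.6, with pandas 2.3.3 and scipy 1.17.1 under Python 3.11.15 and plots from matplotlib 3.10.9. Spearman's rho used a t approximation across genes. Scripts were tested on simulated data. Alternatives were other tests, centring, weights, covariates, the ascus as a block (statmod 1.5.0), and samples left out. The members and the gene lists were chosen with earlier results of these data known. Genes named are the 12 of largest difference in each direction, the 3 of lowest p in each list, and members of the permease, proline and folate lists. Lists are described by counts and medians, with no test. A planned description of promoter motifs was not run, because no sequence was used here. The number of arrays limits the precision. P-values measure the spread between single cultures of different genotypes.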

Additional observations from a re-analysis of the deposited data

Results flagged for a closer look

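Among the 55 genes followed through all settings, 110 sets of 5 parental cultures (each gene in 59A and in S288C) were checked for a culture far from the other 4, by the gap to its neighbour relative to the whole range (above 0.71). There were 6 such values, and chance gives about 1 in 20 sets. *CBP1* was at -1.43 in 1 culture of 59A, against -1.83 to -1.74 in the others. In S288C *CBP1* was at -2.32, the lowest value that the scale allows, in 1 culture and at -2.09 in the other 4. *YLR410W-B* was at 0.37 in 1 culture of S288C, against -0.09 to 0.04, and *YRF1-8* at -0.24, against 0.43 to 0.59. *STE3* was at 0.90 in 1 culture of S288C, against -0.05 to 0.17, and *PEX29* at -0.24 in 1 culture of 59A, against -0.81 to -0.65. The groups of segregants hold more than 10 samples and were not checked in this way.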

How the results depend on the processing

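The number of genes called depended on the fit. Against 0 higher and 0 lower over all 30 segregants, array weights gave 161 and 205, Spearman's rho with nitrogen 36 and 115, limma with nitrogen as a number 2 and 12, R70 as a covariate 36 and 24, and the fit without the 3 arrays that stand apart (chosen after the data had been seen) 105 and 63. The genes also called between the parents then numbered 97, 49, 8, 10 and 66. With 1 segregant left out at a time, calls ranged from 0 to 21 higher and 0 to 11 lower, with 0 to 17 also called between the parents. The highest counts came without 16d, and without 28b there were 0 higher and 2 lower. At an unadjusted p under 0.05, higher genes (279) numbered 155 with the ascus as a fixed block, 435 with the first spore of each ascus, 531 with array weights, 426 with R70, 522 without the 3 arrays and 474 with the correlation as a covariate (also chosen after the data had been seen), and ranged from 204 to 427 with 1 segregant left out. Lower genes (390) numbered 193 with the fixed block, 629 with array weights, 592 with Spearman's rho and 232 with Rmax as a covariate. The cause of these shifts was not tested.

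Sister spores give a replicate block by ascus. Both the fixed and the random block called 0 genes. The deviations of sister spores correlated at 0.051 on average over 13 pairs, and the consensus correlation within an ascus was 0.071. Under the fixed block the median turned to 0.0545 for nitrogen regulators, 0.0212 for vacuolar proteases and -0.00201 for cell cycle genes. The parental cultures share only a number (correlation of deviations from -0.290 to 0.392), and a block on it gave 663 genes higher and 539 lower in 59A. At an adjusted p under 0.05, 911 genes were lower in 59A.

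For traits, the R70 difference missed the threshold with the first spore of each ascus (0.401) and within asci (0.446). Succinic acid reversed with the first spores (0.0135) and without the 3 segregants (0.00444), as did pyruvic acid without the 3 (0.000442). With 1 segregant left out the ranges were -0.0125 to 0.00618 g per l for succinic acid, -0.0149 to 0.00748 for pyruvic acid and -0.565 to -0.313 for glycerol, which passed the threshold in 2 of these.

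With Rmax as a covariate the sign turned for *MEP2* (-0.12), *GAP1* (-0.083), *BAP3* (-0.0075), *PRB1* (-0.051), *YLR410W-B* (-0.26) and *HSP12* (0.29), and with R70 for *HSP12* (0.36). Medians under Rmax were -0.0759 for permeases, -0.0920 for the proteasome, -0.0825 for respiratory assembly, -0.514 for Ty genes, -0.0460 for cell cycle genes and -0.0909 for sporulation genes. Under R70 they were -0.0720 for the proteasome and -0.0117 for cell cycle genes, which had 0.00698 with the first spores. No oligonucleotides shared a gene, so averaging them gave no value, and the promoter motifs were not run.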

Other observations

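Segregant 28b, with 316.5 mg of nitrogen per l, lay among or above the highest N_low values of several genes. It had 1.21 for *LPX2*, 1.51 for *MRS1*, 1.65 for *JID1* and 1.80 for *MTF1*, which are all on the chromosome XIV list. Another N_high segregant, 20a, whose array stands apart, had 0.30, 0.91, 1.39 and 1.46 for them. The labels give MATa for both parents and the methods give MATα for S288C. The a-cell genes *MFA1* and *STE2* were higher in 59A than in S288C, by 1.04 and 0.53. Of the 4 alpha-cell genes, 0 passed between the parents in either direction (limma adjusted p under 0.01), with a median of -0.07 for 59A minus S288C. The mating type of S288C was not tested.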
